A study of Homo sapiens with 3 samples.

Results

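The tail module of Mediator was represented in the screen by 9 genes, MED15, MED16, MED23, MED24, MED25, MED27, MED28, MED29 and MED30, taken by name from the gene column of the deposited guide tables. Each gene had 3 guides, so the module held 27 of 62916 guides and 9 of 20472 gene names. The cells were NUGC3, an established human gastric cancer line that carried a pooled GeCKO knockout library, in which the guide a cell receives directs Cas9 to 1 gene. The libraries were cells treated with 10 nM RTX up to day 14, cells given DMSO, a solvent, up to day 14, and the DMSO group at day 0. RTX is not written out in the labels, and the title of the series names antifolate drugs, MYC, cohesin and Mediator. Sample titles gave the groups, because a treatment note ascribes the treatment of 14 days to the day 0 group. Each condition was 1 library of 1 line, so differences between conditions have no replicate check and were not tested.

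Mediator is the large complex that carries signals from DNA-bound transcription factors to RNA polymerase II. Its head and middle modules contact the polymerase, the kinase module binds reversibly, and the tail is the part that activators touch. Different tail subunits receive different activators, and the lower tail subunits can be lost without taking the head and middle apart. MED27, MED28, MED29 and MED30 join the tail to the rest of the complex, and some accounts count MED28 and MED30 with the head.

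A guide is counted in genomic DNA, so its reads measure how many cells carry it. The libraries held 17344507 reads in RTX, 18805737 in DMSO at day 14 and 16547572 at day 0. The 27 tail guides had between 59 and 1391 reads in RTX with a median of 236, between 14 and 748 in DMSO with a median of 199, and between 29 and 627 at day 0 with a median of 251. All 27 passed the filter of 10 normalized reads at day 0. The log2 ratio of each guide used the normalized values as deposited, plus a pseudocount of 5, which shrinks ratios at low counts, and the score of a gene is the median over its guides. A ratio is relative to all guides, whose median is near 0. Guides without a target show drift without a knockout. The middle 95% of 991 such guides spanned log2 ratios of -1.31 to 1.17 for RTX over DMSO. The span was -0.97 to 1.11 in the DMSO over day 0 comparison and -1.01 to 1.05 in that of RTX over day 0.

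Guides against the tail were more abundant in RTX than in DMSO as a group, and the excess lay in some of its genes. The 27 guides together took 499 RPM (reads in every 1000000 of a library) in RTX, 359 in DMSO at day 14 and 431 at day 0, with exact 95% Poisson intervals of 489 to 510, 350 to 368 and 421 to 441 that cover counting error only. Without MED23, the gene with the most reads in RTX, the other 24 guides took 377 RPM in RTX, 314 in DMSO and 369 at day 0. The tail sum was thus highest in RTX and lowest in DMSO at day 14, and without MED23 the sum in RTX was near that at day 0. In RTX over DMSO, 6 of the 9 genes had a score above 0 and 3 below, with a median score of 0.38 against -0.0025 over all 20150 scored genes. With guides under 50 reads at day 0 left out the tail median was 0.89, because the score of MED27 then rests on 2 guides, and with gene scores taken as the mean of guides it was 0.70.

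**Figure D1:**
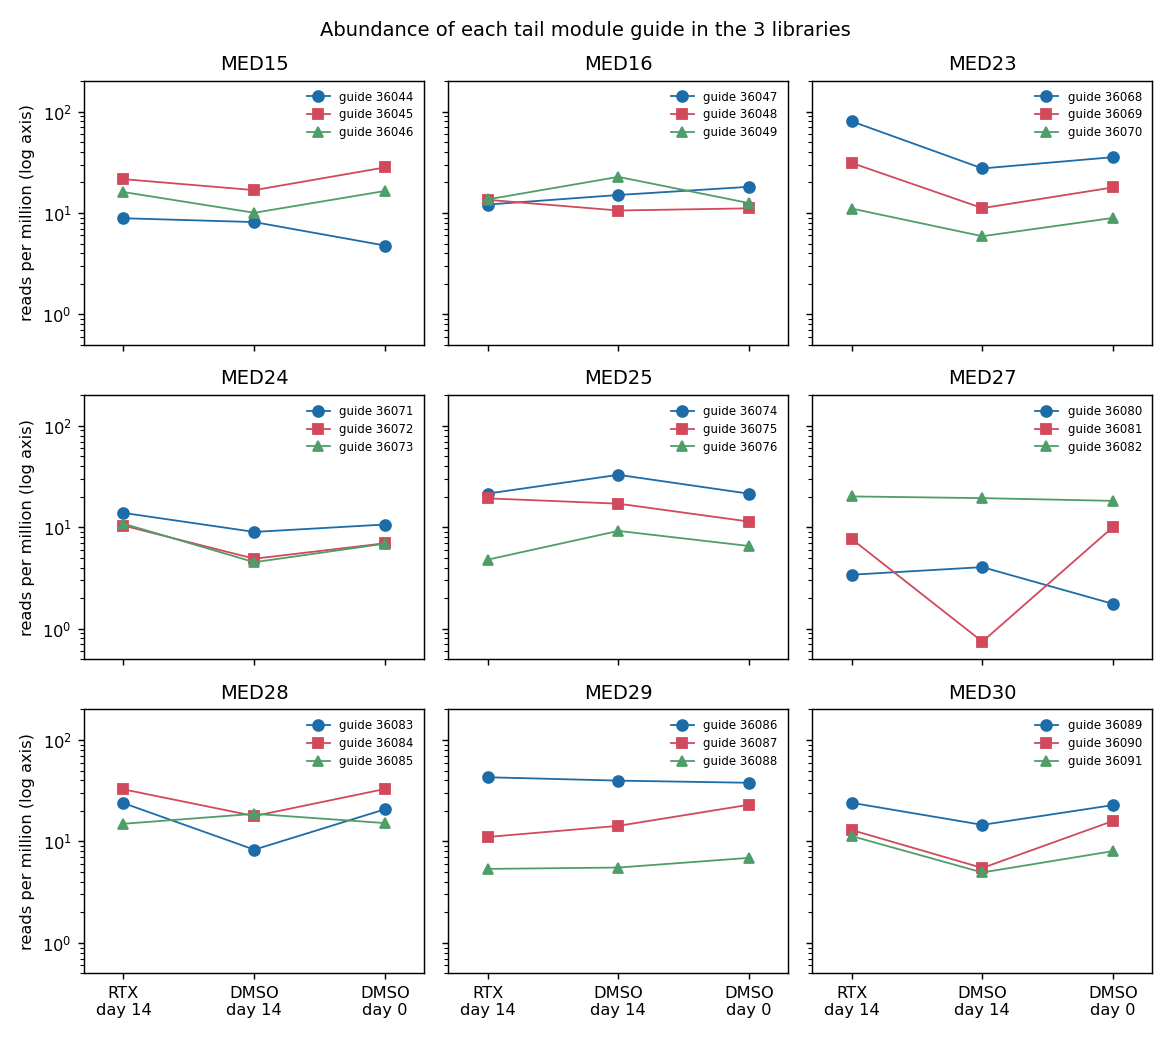
RPM of each tail guide (vertical log axis) in RTX at day 14, DMSO at day 14 and DMSO at day 0, with 1 panel per gene and 1 line per guide, named by its number in the library. All 3 lines of MED23, MED24 and MED30 are lowest in DMSO at day 14, and 1 MED27 guide drops to 14 reads there.

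Among the tail genes, 3 had a score of at least 1 in RTX over DMSO, a 2-fold difference, namely MED23, MED24 and MED30. Over all genes 2.75% reached this score. None of the 9 was at or below -1, where 0.844% of all genes lay. All 3 guides were above 0 for 4 genes, MED15, MED23, MED24 and MED30, against 13.9% of all genes, and no tail gene had all guides below 0, against 13.3% of all genes. Over all genes 555 scored at least 1 and 170 at most -1, and the split became 756 and 115 when the median non-targeting guide was set to 0. The same 3 tail genes stood past 1 on that scale.

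MED23 binds activators such as ELK1 at the end of growth factor signalling, and together with MED16 and MED24 it forms a part of the tail that can be lost as a unit. The MED23 guides 36068, 36069 and 36070 had 1391, 541 and 192 reads in RTX, against 517, 210 and 111 in DMSO and 588, 296 and 148 at day 0. Every MED23 guide was highest in RTX and lowest in DMSO. The log2 ratios of RTX over DMSO were 1.56, 1.48 and 0.90, with a score of 1.48, the highest of the tail and at percentile 99.1 of all genes. Relative to day 0, the guides in DMSO stood at -0.34, -0.64 and -0.55, inside the range of the non-targeting guides. In RTX over day 0, which does not use the DMSO day 14 library, they stood at 1.23, 0.85 and 0.36. Guide 36068 lay above the non-targeting range there, the only tail guide to do so.

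MED24, a partner of nuclear receptor signalling through Mediator, had the same order of libraries at lower counts. Its guides 36071, 36072 and 36073 had 240, 180 and 188 reads in RTX, against 169, 92 and 85 in DMSO and 176, 115 and 114 at day 0. The log2 ratios of RTX over DMSO were 0.63, 1.07 and 1.23, with a score of 1.07. All 3 guides were lowest in DMSO and highest in RTX. The score in RTX over day 0 was 0.62 with a guide range of 0.43 to 0.69, so all guides lay above 0 and inside the non-targeting range. The MED24 score in RTX over DMSO was 0.96 with a pseudocount of 20 and 0.98 with the mean of guides, just under the threshold.

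MED16, which lies beside MED23 and MED24 in the complex, did not share their values. Its guides 36047, 36048 and 36049 had 210, 234 and 236 reads in RTX, against 283, 199 and 427 in DMSO and 300, 184 and 207 at day 0. The 3 MED16 guides were thus at nearly equal counts in RTX and spread in DMSO. The log2 ratios of RTX over DMSO were -0.28, 0.37 and -0.70, with a score of -0.28. No MED16 guide reached the lowest guide of MED23 or of MED24 in that comparison. The score was -0.04 in DMSO over day 0 and 0.18 in RTX over day 0, and both changed sign under 1 of the 7 alternative settings.

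MED15, whose activator-binding domain receives sterol-sensing and other transcription factors, had guides in both directions. Guides 36044, 36045 and 36046 had 154, 374 and 279 reads in RTX, against 153, 316 and 189 in DMSO and 79, 466 and 273 at day 0. All 3 ratios of RTX over DMSO were above 0, at 0.14, 0.38 and 0.69. Guide 36044 stood at 0.76 in DMSO over day 0, while the other two stood at -0.71 and -0.67. The MED15 score was -0.67 in DMSO over day 0, but -0.21 as the mean of guides, and it was 0.02 in RTX over day 0.

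MED25, which receives ETS family and viral activators through its own binding domain, had most of its values on the other side of 0 from MED23. Its guides 36074, 36075 and 36076 had 372, 334 and 83 reads in RTX, against 618, 321 and 173 in DMSO and 354, 188 and 108 at day 0. The ratios of DMSO over day 0 were 0.64, 0.60 and 0.50, so all 3 guides were more abundant after culture in DMSO than before it. In RTX over DMSO they were -0.59, 0.19 and -0.88, and the score of -0.59 was the lowest of the tail, at percentile 6.48 of all genes. The score in RTX over day 0 was 0.06 with a guide range of -0.37 to 0.81. All MED25 guides lay inside the non-targeting range in all 3 comparisons.

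MED30, a subunit found in animals, had 417, 225 and 196 reads of guides 36089, 36090 and 36091 in RTX, against 274, 103 and 93 in DMSO and 378, 264 and 133 at day 0. All 3 guides were lower in DMSO than in either other library. The log2 ratios of RTX over DMSO were 0.73, 1.23 and 1.17, with a score of 1.17. Those of DMSO over day 0 were -0.61, -1.47 and -0.65, with a score of -0.65. Relative to day 0, the guides in RTX lay on both sides of 0, at 0.13, -0.23 and 0.54. The score of MED30 past 1 therefore goes with low reads in DMSO at day 14 and with levels in RTX near those at day 0.

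MED28, which also binds cytoskeletal and signalling adaptors outside Mediator, had 414, 566 and 259 reads of guides 36083, 36084 and 36085 in RTX, against 156, 335 and 352 in DMSO and 344, 545 and 251 at day 0. In RTX over day 0 all 3 guides lay within a narrow band, at 0.26, 0.05 and 0.04. They separated in DMSO over day 0, at -1.27, -0.85 and 0.32. The score of -0.85 was the lowest tail score in that comparison and became -1.04 with the median non-targeting guide at 0. On that scale the median over all genes was -0.19. In RTX over DMSO the ratios were 1.52, 0.89 and -0.30. Guides 36083 and 36084 were thus lower in DMSO than in both other libraries, and guide 36085 was not.

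MED27 had 1 guide far from the other two. Guide 36081 had 133 reads in RTX, against 14 in DMSO and 167 at day 0, with a log2 ratio of 2.98 in RTX over DMSO, of -3.32 in DMSO over day 0 and of -0.33 in RTX over day 0. The other MED27 guides, 36080 and 36082, had 59 and 349 reads in RTX, against 76 and 364 in DMSO and 29 and 301 at day 0. Their ratios of RTX over DMSO were -0.21 and 0.08. Guide 36081 held the most extreme tail ratio in both comparisons that use DMSO at day 14, while the gene scored 0.08 in RTX over DMSO and 0.11 in DMSO over day 0. Guide 36080 had the fewest day 0 reads of all tail guides, and without it and other guides under 50 reads MED27 scored 1.53 and -1.60 in these comparisons.

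MED29, the human relative of the Drosophila protein Intersex, was nearly level between RTX and DMSO. Guides 36086, 36087 and 36088 had 745, 192 and 93 reads in RTX, against 748, 268 and 104 in DMSO and 627, 381 and 114 at day 0. The score was -0.02 in RTX over DMSO, -0.28 in DMSO over day 0 and -0.29 in RTX over day 0. MED29 was the only tail gene with a score below 0 in RTX over day 0. Guide 36087 had the lowest tail ratio there, -0.98, just inside the non-targeting range.

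**Figure D2:**
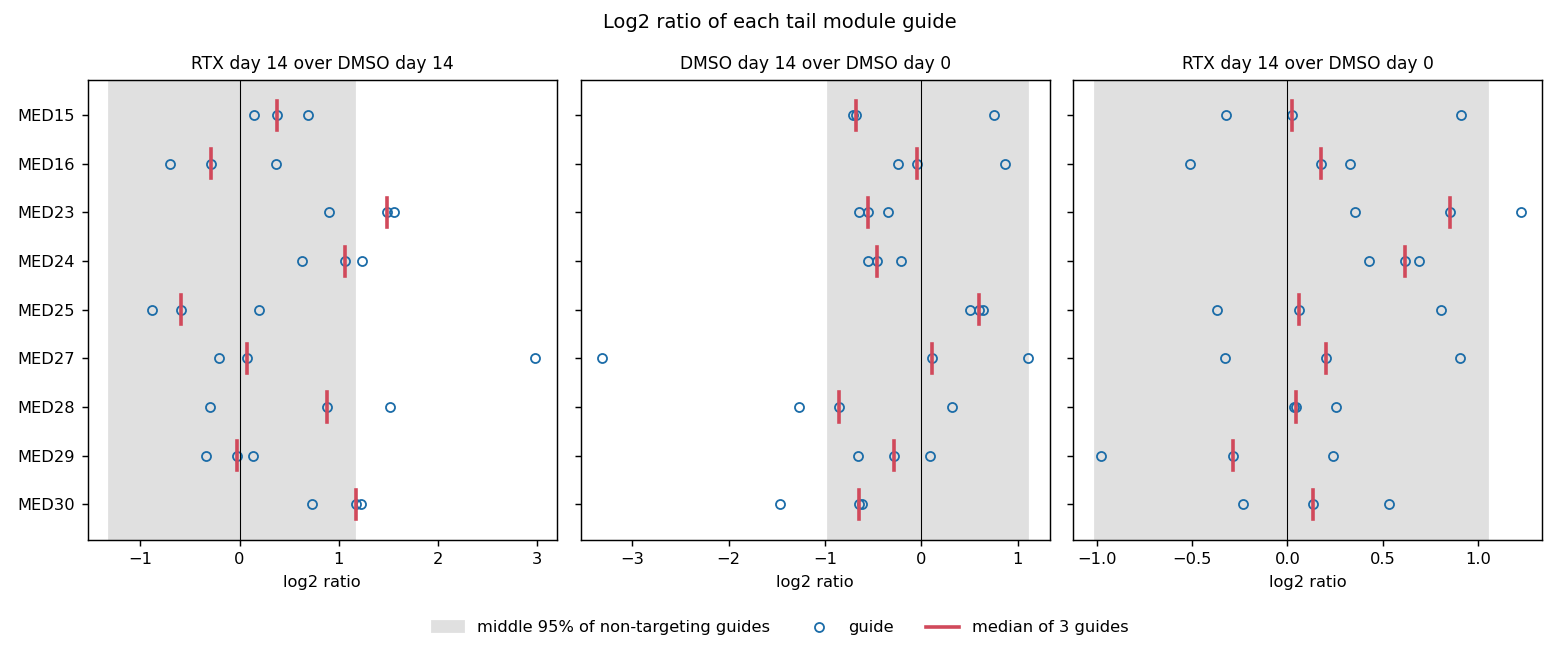
Log2 ratios (horizontal axis) of the 3 guides of each tail gene in the 3 comparisons, with the gene score as a vertical bar and the middle 95% of non-targeting guides shaded. In RTX over DMSO, 7 guides lie above the shaded range, against 5.65% of targeting guides. In DMSO over day 0, 3 lie below it, against 8.04%, and in RTX over day 0, 1 lies above it, against 2.72%.

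Without drug, the question is which knockouts were lost between day 0 and day 14 in DMSO. The tail median was -0.46, and -0.65 with the median non-targeting guide at 0, with 7 genes below 0 and 2, MED25 and MED27, above. The median over all genes was -0.0009, and -0.19 with the median non-targeting guide at 0. On the non-targeting scale MED27 turned to -0.08. No tail gene reached -1, where 3.42% of all genes lay, and none reached 1, where 0.109% lay. All guides were below 0 for 3 genes, MED23, MED24 and MED30, against 14.6% of all genes, and above 0 for MED25 alone, against 14.0% of all genes. The 3 genes with all guides below 0 were also the 3 past 1 in RTX over DMSO. Both comparisons use the DMSO day 14 library, on opposite sides of the ratio, so a chance low value there moves both.

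For RTX over day 0 the tail median was 0.13, and 8 of 9 genes scored above 0. The scores ran from -0.29 for MED29 to 0.85 for MED23, which lay at percentile 98.8 of all genes, and MED24 lay at percentile 96.3. No tail gene reached 1, against 0.620% of all genes, or -1, against 1.39% of all genes. Over all genes 125 scored at least 1 and 280 at most -1, and with the median non-targeting guide at 0 the split was 81 and 393. All guides were above 0 for MED23, MED24 and MED28, against 14.0% of all genes, and no tail gene had all guides below 0, against 14.0% of all genes as well. With the median non-targeting guide at 0, the tail median was 0.03, and the scores of MED15, MED25 and MED28 turned to -0.08, -0.04 and -0.06. On that scale the median over all genes was -0.11, against -0.0049 as deposited.

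The authors' deposited tables give each guide a false discovery rate (FDR), modelled on the 2 libraries of the pair. At an FDR under 0.05, the authors' deposited table for RTX and DMSO had 11 of 27 tail guides higher in RTX, against 13.9% of all guides, and 0 lower, against 4.29% of all guides. These 11 were all guides of MED23 and MED30, 2 each of MED24 and MED28, and MED27 guide 36081. In the authors' deposited table of DMSO over day 0, 3 tail guides were higher, against 9.77% of all guides, and 5 were lower, against 5.84%. The 5 lower guides were 36045 of MED15, 36081 of MED27, 36083 and 36084 of MED28 and 36090 of MED30. By the authors' deposited table for RTX and day 0, 4 tail guides were higher, against 11.0% of all guides, and 1 was lower, against 4.04%. The 4 were 36044 of MED15, 36068 and 36069 of MED23 and 36075 of MED25, and the 1 was 36087 of MED29. Of the 1000 non-targeting guides, the authors' deposited tables call 83 higher and 53 lower in RTX over DMSO, 176 higher and 9 lower in DMSO over day 0, and 135 higher and 15 lower in RTX over day 0. Set against the non-targeting range instead, 7 tail guides were above it in RTX over DMSO, where 5.65% of targeting guides were, and 3 were below it in DMSO over day 0, where 8.04% were. In RTX over day 0, 1 tail guide was above that range, where 2.72% of targeting guides were.

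Beside the other Mediator modules, the tail had the highest median score in RTX over DMSO and did not have the lowest in DMSO over day 0, and differences between modules were not tested. In RTX over DMSO the medians were 0.38 for the 9 tail genes, 0.20 for the 8 genes of the head and the scaffold MED14, 0.23 for the 9 middle genes and 0.19 for the 7 kinase genes. Scores of at least 1 were held by 3 tail genes, by MED22 of the head at 1.60, by the middle genes MED1 at 1.03 and MED4 at 1.01, and by 0 kinase genes. MED22 and MED1 each had 1 guide below 0, at -0.24 and -0.02, while the guides of MED4 spanned 0.28 to 2.17. All guides were above 0 for 4 of 9 tail genes, 4 of 9 middle genes and 3 of 7 kinase genes. The head and scaffold had 0 such genes, and the share over all genes was 13.9%. The median log2 ratio was 0 over all guides and -0.10 over non-targeting guides. Guides above 0 numbered 19 of 27 in the tail and 20 of 27 in the middle. The head and scaffold had 14 of 24, and the kinase module 15 of 21. Scores were above 0 for 6 of 9 tail genes and 6 of 8 genes of the head and scaffold. The same held for 7 of 9 middle genes and 5 of 7 kinase genes. Above the non-targeting range lay 7 of 27 tail guides and 5 of 24 of the head and scaffold, beside 5.65% of targeting guides. The middle had 3 of 27 and the kinase module 2 of 21. Scores mostly above 0 were thus shared with the other modules.

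Module medians in DMSO over day 0 were -0.46 for the tail, -0.83 for the head and scaffold, -0.60 for the middle and -0.13 for the kinase module. The head held 3 genes at or below -1, MED8 at -1.93, MED22 at -1.31 and MED11 at -1.30, and the middle held 2, MED26 at -1.27 and MED9 at -1.16, against 0 of the tail and 0 of the kinase module. Guides below the non-targeting range numbered 3 of 27 in the tail, 10 of 24 in the head and scaffold, 8 of 27 in the middle and 1 of 21 in the kinase module. All guides were below 0 for 4 of 9 middle genes and 3 of 9 tail genes, beside 14.6% of all genes. The head and scaffold had 1 such gene, and the kinase module 0. In RTX over day 0 the medians were 0.13 for the tail, -0.25 for the head and scaffold, -0.19 for the middle and 0.15 for the kinase module, and MED8, at -1.41, was the only Mediator gene past 1 in either direction. The highest gene score in RTX over day 0 was 0.94 in the kinase module and 0.85 in the tail. It was 0.81 in the middle and 0.07 in the head and scaffold. By the authors' FDR, 8 of 21 kinase guides were higher there and 4 of 27 tail guides, beside 11.0% of all guides. The ranges of tail and head scores overlapped in every comparison.

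**Figure D3:**
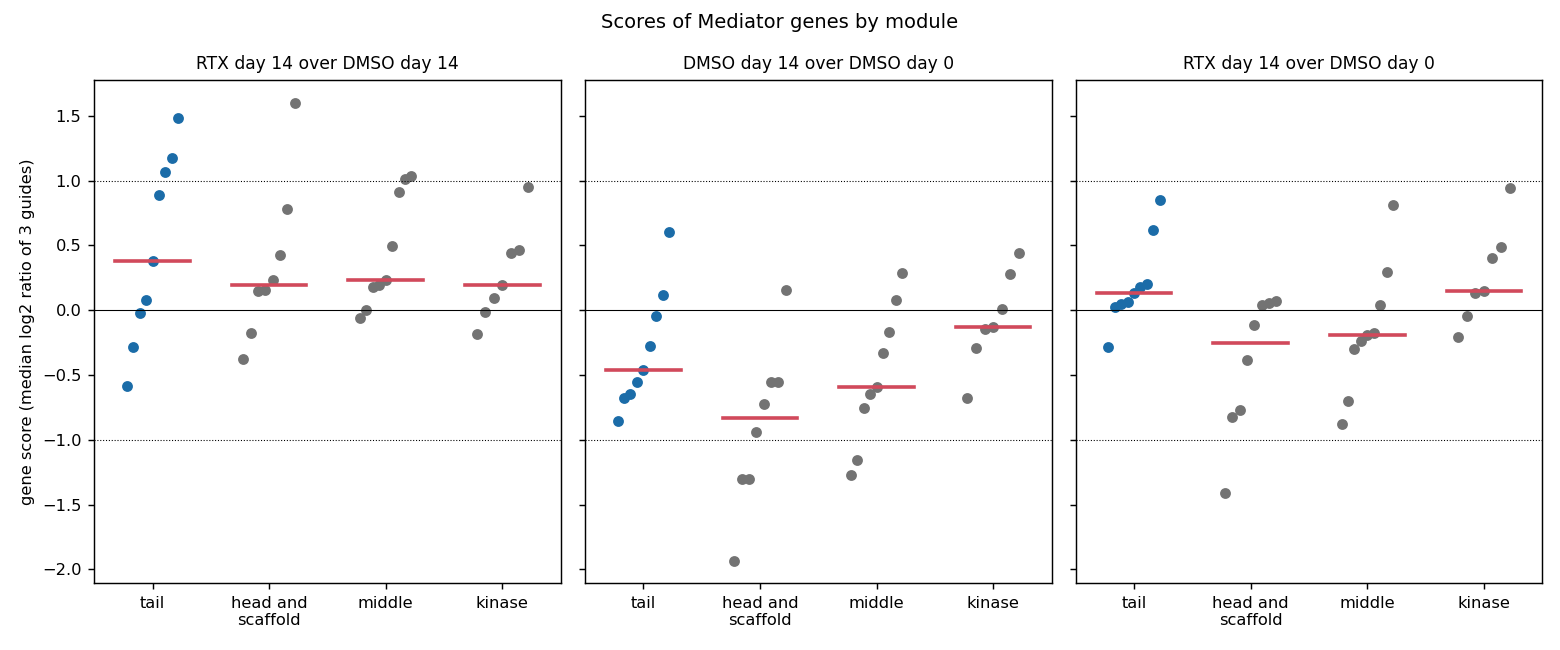
Gene scores (vertical axis, log2) of the Mediator genes in the tail, the head and scaffold, the middle and the kinase module for the 3 comparisons, with 1 point per gene, module medians as bars and dotted lines at scores of -1 and 1. The tail holds 3 points above 1 for RTX over DMSO and no point past -1 in any comparison.

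Cutting in a region of altered copy number can move all guides of that region, so each tail gene was set beside the 10 nearest scored genes on each side of its chromosome. In RTX over DMSO the medians of the 20 neighbours lay between -0.15 and 0.16 for all 9 genes. MED23 on chromosome 6, MED24 on chromosome 17 and MED28 on chromosome 4 scored above all 20 of their neighbours, and MED30 on chromosome 8 above 19 of 20. MED25 on chromosome 19 scored below all of its 20 neighbours, whose median was 0.16. In RTX over day 0, MED23 and MED24 again scored above all 20 neighbours, with neighbour medians of 0.06 and -0.01. Neighbour medians in DMSO over day 0 lay between -0.12 and 0.14. Of the 20 neighbours, 2 scored below the tail gene for each of MED15, MED23, MED24 and MED30, and 1 for MED28.

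**Figure D4:**
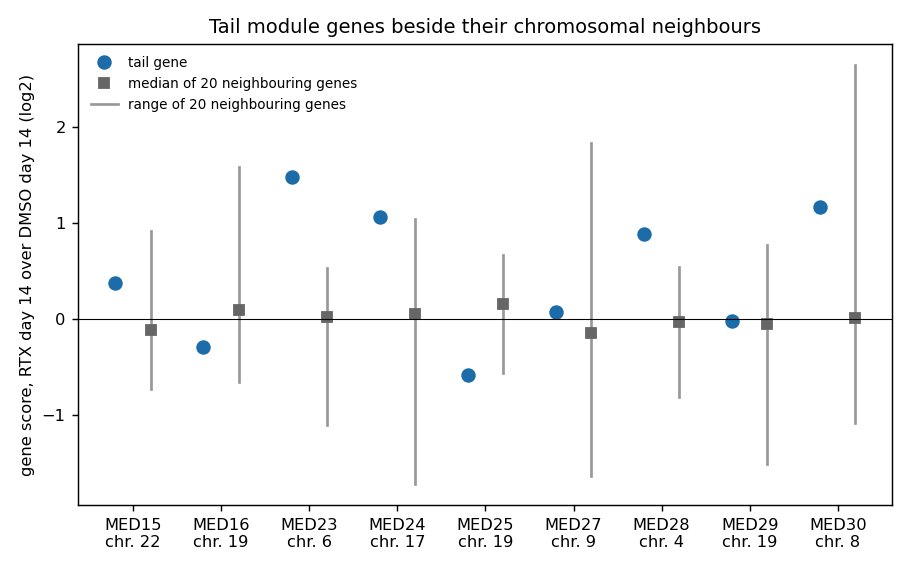
Score of each tail gene for RTX over DMSO (circles, log2, vertical axis) beside the median (squares) and range (lines) of its 20 nearest scored genes, with the chromosome under each name. Neighbour medians stay between -0.15 and 0.16, and MED23, MED24 and MED28 lie above the range of their neighbours.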

How the data were processed

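Guides were amplified from genomic DNA by PCR and sequenced, per the labels' protocols. The authors deposited 3 guide tables, 1 per pair of libraries, made with MAGeCK 0.5.7, and the build was hg19, per the submitters' processing notes. A tool for matching reads was not given in the sources used here. The deposited values are a signal of guide abundance, reads divided by 1 size factor per library. Dividing by the value of 1 read gave whole reads for at least 99.9968% of values within 0.1. The deposited FDR is the authors' q-value per guide.

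Ratios used 62610 of 62916 guides, and 20150 genes with at least 2 guides were scored, without 23 date-like names. Intervals cover counting error only, since PCR reads are not independent molecules. Members, lists and thresholds were chosen with earlier results of these data known. Named genes were all tail genes and other Mediator genes scoring at least 1 or at most -1 in any comparison. Gene order came from RefSeq of GRCh38.p14, which placed 19159 symbols, 2077 through a synonym; no coordinates are given, because the build differs. A count test, edgeR 4.0.16 (exact test, 1 dispersion from the non-targeting guides), was added after the data were examined. Both were tested on simulated data, where the scores recovered the changes put in and the count test, guide by guide, called few of the changed guides. Python 3.11.15 was used.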

Additional observations from a re-analysis of the deposited data

How the results depend on the processing

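Of 27 tail scores, 19 kept their sign under all 7 alternatives (pseudocounts of 1 and 20, no filter and a filter of 50 reads at day 0, equal library totals, a median of 0 for the non-targeting guides, and gene means over guides), and 8 changed it in at least 1, all of them with a score between -0.04 and 0.20. MED23 and MED30 stayed at or above 1 in RTX over DMSO under all 7, from 1.31 to 1.58 and from 1.04 to 1.27. The share of all genes at or above 1 ran from 1.881% with a pseudocount of 20 to 3.752% on the non-targeting scale. In DMSO over day 0, the number of tail genes at or below -1 was 0, but 1 (MED27) with the filter of 50 reads, which drops 1 of its guides, and 1 (MED28) when scaled to the non-targeting guides. Over all genes the share at or below -1 was 3.419% in the main setting, 3.273% with that filter and 5.325% on the non-targeting scale.

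The count test on recovered reads compares 2 libraries, not conditions. At an adjusted p under 0.05 by edgeR's exact test, over all guides, it called 1 tail guide higher in RTX over DMSO, where the authors' FDR called 11, and 0 lower, beside 598 higher and 257 lower of all 62916 guides. In DMSO over day 0 it called 0 higher and 1 lower (3 and 5 by the authors' FDR), beside 110 and 1291 of all guides, and in RTX over day 0 it called 0 higher and 0 lower (4 and 1), beside 136 and 414 of all guides. Both tail guide calls were of MED27 guide 36081, and both use its 14 reads in DMSO at day 14. At an unadjusted p under 0.05, edgeR's exact test put 4 of 27 tail guides higher in RTX over DMSO (4.9% of all guides), 3 lower in DMSO over day 0 (6.63% of all guides) and 1 higher in RTX over day 0 (2.56% of all guides), and 0 in each opposite direction (3%, 1.89% and 4.24% of all guides). No paired analysis was possible because each condition was 1 library.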
